A study of Mus musculus with 3 samples.

Results

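The enzymes and transporters that carry glucose to lactate or into the mitochondrion were examined as 38 genes, chosen by symbol: glucose and lactate transporters, the glycolytic isoenzymes, the Pfkfb enzymes, and the pyruvate dehydrogenase complex with its kinases. All 38 were found among the 24467 genes of the deposited tables. The cells were 5TGM1.BRE, the engraftable bortezomib-resistant form of 5TGM1, a mouse myeloma line from a tumour that arose in C57Bl/KaLwRij mice, and bortezomib is a drug that inhibits the proteasome. Per the labels, they came from mouse bone marrow, grew in IMDM with fetal bovine serum, antibiotics, L-glutamine, sodium pyruvate, HEPES and 10 nM bortezomib, and were off the drug for at least 72 h when RNA was taken from 10000000 cells per sample. The 3 samples formed 1 group, so no change on resistance could be measured, and the sensitive line was not analysed here. The cell type label of replicate 1 does not mention selection in the drug, as those of replicates 2 and 3 do, although its title calls it resistant. The line is 1 selected derivative, and nothing in the labels says that the replicates were separate cultures, so the SDs may hold technical spread alone.

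Glycolysis splits glucose into pyruvate in the cytosol, and most of its steps can be run by any of several isoenzymes that differ in tissue and regulation. Pyruvate then has a choice of fates. Lactate dehydrogenase reduces it to lactate, which leaves through proton-coupled transporters, whereas the pyruvate dehydrogenase complex turns it into acetyl-CoA inside the mitochondrion and is switched off by the Pdk kinases. Plasma cells and proliferating tumour cells are known for high glucose use, and the factors MYC and HIF1A are known to induce many of these genes.

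The libraries held 62303493, 45705994 and 59402218 counts for replicates 1, 2 and 3. Levels are given as CPM, reads of a gene per 1000000 counts of its library, or as CPM per kilobase of exon where genes are compared with each other. A gene with no count in a library could still be at up to 3 counts, or 0.0482, 0.0656 and 0.0505 CPM, a limit that covers counting error only. Of 8 plasma cell markers 7 were at 1 CPM or more in all libraries, the exception being Tnfrsf17 at 0.582 ± 0.145 CPM (SD, n = 3). Summed marker levels were 0.353 to 0.394 CPM for 7 erythroid genes, 0.175 to 0.488 CPM for 8 myeloid genes, 0.175 to 0.369 CPM for 6 T and NK cell genes and 0.744 to 1.13 CPM for 6 muscle and neuron genes. Stromal and endothelial markers summed to 6.12 to 6.68 CPM, most of it Pecam1. Replicate 3 stood apart. In edgeR's quasi-likelihood test of each library against the other 2, 51.6% of 11308 genes were called for replicate 3 at an adjusted p of 0.05, against 0.0796% for replicate 1 and 0.0531% for replicate 2. In replicate 3 the fold change fell with gene length (Spearman -0.59 across 11238 genes, which are not independent replicates). In the tests of replicates 1 and 2 the other pair holds replicate 3, which widens the spread of that pair. Their low shares are therefore no measure of agreement. What sets replicate 3 apart was not tested.

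The cells transcribed 1 dominant isoenzyme at most steps and had almost none of its alternative at several. Of the 38 members, 28 were at 1 CPM or more in all libraries, against 40.9% of all genes in the tables, and 17 were above 100 CPM in every library. The median member was at 60.7 CPM and the median gene of the tables at 0.0764 CPM, a value that includes many genes with few or no counts. Among genes that passed the filter on low counts, the medians were 117 CPM for members and 33.7 CPM for all genes. Together the 38 genes took 0.974, 0.954 and 0.970% of the counts of replicates 1, 2 and 3, and Pkm, Aldoa, Ldha, Gapdh, Tpi1 and Eno1 made up 72.3% of that. The 10 members below the limit were Slc2a2, Slc2a3, Slc2a4, Hk3, Eno2, Pklr, Ldhb, Slc16a3, Pfkfb3 and Pdk4. All 10 had at least 1 count, and 6 of them had fewer than 20 counts over the 3 libraries. These are levels in bulk RNA, in which a gene used by few cells and a gene used weakly by all cells cannot be told apart.

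The genes of lactate production and export, Ldha with Ldhb and Slc16a1 with Slc16a3, are shown with the 250 bases before the start site of each gene (RefSeq, GRCm38.p6), because expressed and near-silent forms of 1 step can be read side by side there. Capitals mark ACGTG on either strand, a form of the core of the element bound by HIF1A with ARNT. ACGTG also lies within CACGTG, the E-box bound by MYC with MAX. The other form of the core, GCGTG, is not marked. Sequences run 5′ to 3′ on the strand of the gene.
Ldha, chr7:46845554-46845803, plus strand: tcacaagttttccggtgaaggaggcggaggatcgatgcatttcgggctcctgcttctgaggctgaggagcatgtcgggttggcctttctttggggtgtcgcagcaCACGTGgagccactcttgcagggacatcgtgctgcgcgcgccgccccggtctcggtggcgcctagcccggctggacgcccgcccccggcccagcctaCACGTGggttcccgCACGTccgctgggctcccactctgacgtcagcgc
Ldhb, chr6:142507958-142508207, minus strand: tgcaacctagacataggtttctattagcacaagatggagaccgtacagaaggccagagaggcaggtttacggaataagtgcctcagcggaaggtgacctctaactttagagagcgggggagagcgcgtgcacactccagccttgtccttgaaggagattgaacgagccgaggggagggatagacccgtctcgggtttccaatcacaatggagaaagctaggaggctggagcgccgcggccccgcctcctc
Slc16a1, chr3:104638414-104638663, plus strand: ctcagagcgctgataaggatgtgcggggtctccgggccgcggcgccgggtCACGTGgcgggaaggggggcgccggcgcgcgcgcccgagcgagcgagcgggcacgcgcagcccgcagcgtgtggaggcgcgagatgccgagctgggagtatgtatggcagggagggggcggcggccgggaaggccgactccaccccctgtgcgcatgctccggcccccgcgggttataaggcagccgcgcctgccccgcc
Slc16a3, chr11:120948817-120949066, plus strand: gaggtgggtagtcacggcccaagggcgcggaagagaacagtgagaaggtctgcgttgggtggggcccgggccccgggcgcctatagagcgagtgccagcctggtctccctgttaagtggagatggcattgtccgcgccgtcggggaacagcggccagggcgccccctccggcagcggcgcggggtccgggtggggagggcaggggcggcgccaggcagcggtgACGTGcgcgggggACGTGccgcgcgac

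The 4 windows were chosen for display, and no pattern over isoenzyme pairs is read from them. The Ldha window held ACGTG at 3 places, of which 2 were a full CACGTG, and the Ldhb window at none. Slc16a1, the abundant lactate transporter, held 1 place, a full CACGTG, and Slc16a3, the near-silent one, held 2 places, neither of them CACGTG. The form GCGTG, which was not counted, does occur in the Ldhb and Slc16a1 windows. Promoters of 36 members could be matched, taking the start nearest to that of the widest principal transcript in GENCODE. Some members have more than 1 start, such as Pfkm with 4, Aldoa with 3 and Ldha with 2. Which start these cells use is not known. Each member counts once below, whereas the 32851 promoters of all mouse genes hold every start of 27025 genes. ACGTG occurred in 11 of 28 members at or above 1 CPM and 3 of 8 below it, against 16.6% of 32851 mouse promoters of the same length. Pkm, Pklr, Eno1 and Eno2, of pairs with larger contrasts, held none. CACGTG occurred in near-silent Pfkfb3 and in Pfkfb2, the most abundant Pfkfb gene, and not in Pfkfb1 or Pfkfb4. For CACGTG the numbers were 5 of 28 and 1 of 8, against 6.02%, for the GC box GGGCGG 16 of 28 and 2 of 8, against 32.7%, and for TATAAA 1 of 28 and 2 of 8, against 12.4%, each counted on both strands. The median number of CG dinucleotides was 13.5 in members at or above the limit, 7.5 in those below and 6 in all promoters. A match describes letters in this window and is not a bound site.

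**Figure D1:**
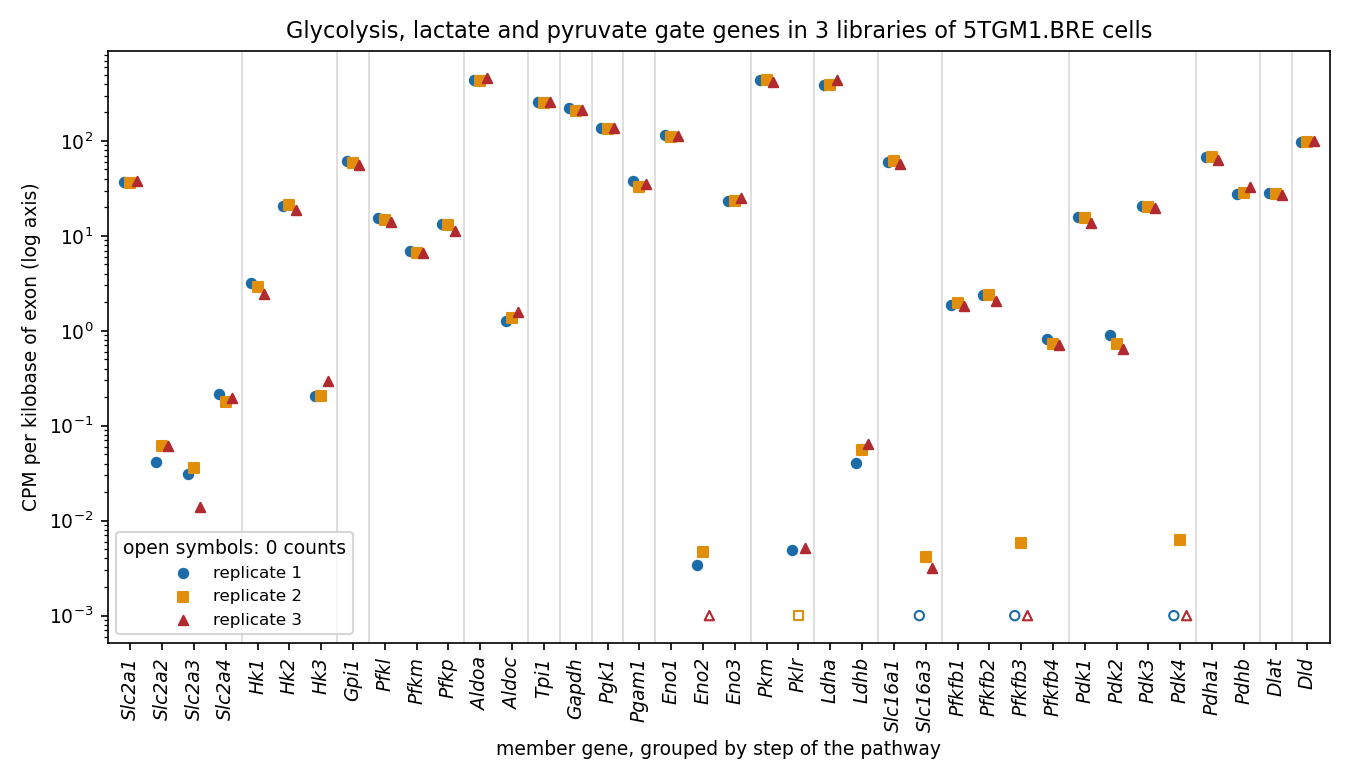
Level of each of the 38 genes in CPM per kilobase of exon (log axis), 1 symbol per library, grouped by step; open symbols at the bottom mark 0 counts. Ldha lies near 400 and Ldhb below 0.1, and the gap between Slc16a1 and Slc16a3 is of the same kind.

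Slc2a1, which encodes GLUT1, the basal glucose transporter of most cells, had the highest RNA level of the 4 glucose transporter members. It was at 130, 127 and 132 CPM in replicates 1, 2 and 3. Slc2a3, the high-affinity transporter of neurons, had 14, 12 and 6 counts, and Slc2a1 exceeded it 1400-fold per kilobase (95% interval of the pooled counts 992 to 2048, exact Clopper-Pearson, counting error only). Slc2a2, the low-affinity transporter of liver and pancreatic beta cells, was at 0.315 ± 0.0641 CPM, and Slc2a4, the insulin-responsive transporter of muscle and fat, at 0.680 ± 0.0711 CPM (SD, n = 3 for each). Slc2a1 thus held 99.3% of the summed level of these 4 genes per kilobase. Outside the 4, Slc2a8 was at 5.68 ± 0.437 CPM and Slc2a6 at 1.52 ± 0.329 CPM (SD, n = 3 for each).

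Hexokinase, which traps glucose in the cell by phosphorylation, was mainly Hk2. Hk2, the inducible form of muscle and tumours, was at 124, 127 and 110 CPM, and Hk1, the form found in most tissues, at 27.2, 24.9 and 21.0 CPM. Both were lowest in replicate 3, and their ranges did not overlap. Hk2 exceeded Hk1 7.09-fold per kilobase (log2 ratio 2.83 ± 0.108, SD, n = 3), but 3.85-fold when the longest transcript was taken as the length, because the union of all Hk1 exons spans 8532 bases and its longest transcript 4278. Hk3, a form of myeloid cells, was at 0.754, 0.766 and 1.08 CPM. It reached 1 CPM in replicate 3 and made up 1.03 ± 0.305% of the hexokinase level (SD, n = 3).

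Phosphofructokinase, the committed step of glycolysis, drew on 3 isoenzymes. Per kilobase, Pfkl, the liver form, provided 43.5 ± 0.536% of the step, Pfkp, the platelet form, 36.8 ± 1.40% and Pfkm, the muscle form, 19.7 ± 0.874% (SD, n = 3 for each). Pfkl was at 103, 98.9 and 93.1 CPM and Pfkp at 180, 173 and 149 CPM. The order of this pair depends on the length: Pfkl exceeded Pfkp 1.18-fold per kilobase in 3 of 3 libraries, whereas without lengths Pfkp was 1.70-fold above Pfkl. Pfkm, at 23.1, 21.8 and 21.9 CPM, was 2.21-fold below Pfkl per kilobase and 3.41-fold below with the longest transcript.

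The bifunctional Pfkfb enzymes make and break fructose 2,6-bisphosphate, the main activator of phosphofructokinase. Pfkfb3, the form with the strongest kinase bias and the one usually described in tumours, had 0, 2 and 0 counts. Pfkfb2, the heart form, was at 17.2, 17.2 and 14.9 CPM, Pfkfb1, the liver and muscle form, at 7.56, 7.90 and 7.27 CPM, and Pfkfb4, a form first found in testis, at 3.96, 3.54 and 3.48 CPM. Per kilobase these 3 genes held 46.1, 38.5 and 15.3% of the Pfkfb level. The pooled counts put Pfkfb2 1429-fold above Pfkfb3 per kilobase (95% interval 395 to 11806, exact) and Pfkfb4 478-fold above it (132 to 3953), wide ranges that follow from the 2 counts of Pfkfb3. Of the 50-base stretches of the longest Pfkfb3 transcript, 0.631% occur in annotated transcripts of other genes. For Pfkfb2 the share was 26.1%, all with the overlapping gene model Gm29427 on the same strand. How reads were assigned to genes is not given, so what the counts could separate was not tested.

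The middle of the pathway was led by Aldoa. Aldoa, the aldolase of muscle and most other tissues, was at 1274, 1252 and 1349 CPM, and Aldoc, the brain form, at 4.16, 4.49 and 5.15 CPM, a 315-fold difference per kilobase that grew to 506-fold with the longest transcript. Tpi1, which interconverts the triose phosphates, was at 702, 687 and 713 CPM and Gapdh, the oxidising step, at 909, 857 and 873 CPM. Per kilobase Aldoa exceeded Gapdh 2.08-fold, or 3.12-fold with the longest transcript. Gpi1, which turns glucose 6-phosphate into fructose 6-phosphate, was at 396, 376 and 356 CPM. Pgk1, the first step to yield ATP, was at 306, 296 and 308 CPM. Pgam1, which moves the phosphate of phosphoglycerate, was at 74.8, 65.2 and 70.2 CPM. Pgam1 was lower per kilobase than Aldoa, Tpi1, Gapdh, Gpi1 and Pgk1, at 35.3 ± 2.44 CPM per kilobase (SD, n = 3), and its libraries overlapped with those of none of them.

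Enolase combined the general form with a share of the muscle form. Eno1, found in most tissues, was at 614, 590 and 612 CPM. Eno3, the muscle form (GRCm38 chromosome 11, 70657202 to 70662513, plus strand), was at 40.2, 40.6 and 43.8 CPM. Eno2, the neuronal form, had 1, 1 and 0 counts. Muscle markers were low beside Eno3, with Ckm at 0.233 CPM, Acta1 at 0.568 CPM and Myh4 at 0 counts. Acta1, with 28, 22 and 46 counts, was highest in replicate 3, as Eno3 was. Its log2 fold change there was 0.77 ± 0.301 (SE, edgeR). Ckm, with 16, 11 and 12 counts, had a log2 fold change of -0.27 ± 0.494 (SE, edgeR). That value is smaller than its SE, so Ckm showed no direction. The part of muscle transcripts in the level of Eno3 was not tested. Per kilobase Eno3 held 17.5 ± 0.644% of the step (SD, n = 3), but this share rests on the length and on how copies were counted. Of the 50-base stretches of Eno1, 72.2% also occur in other genes, most of them in Eno1b, a near-identical copy with 381, 283 and 292 counts. Eno1 exceeded Eno3 4.71-fold per kilobase of all exons, 11.3-fold with the longest transcript and 40.2-fold when only bases not shared with other genes counted as length. No such stretch of Eno3 was shared.

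At the end of the pathway Pkm and Ldha stood almost alone. Pkm, the pyruvate kinase of most tissues and tumours (chromosome 9, 59656368 to 59679375, plus strand), was at 2206, 2173 and 2107 CPM, the highest CPM of the 38 genes. Counts per gene do not separate its M1 and M2 splice forms. Pklr, the liver and red cell form, had 1, 0 and 1 counts, and 21.97% of its exon bases overlap Hcn3, a gene on the opposite strand that had 148, 112 and 132 counts. Ldha, the form that favours lactate production (chromosome 7, 46841475 to 46855627, plus strand), was at 1288, 1292 and 1439 CPM, highest in replicate 3. Ldhb, the heart form (chromosome 6, 142490249 to 142507957, minus strand), had 4, 4 and 6 counts. Ldha exceeded it with a log2 ratio of 12.75 ± 0.254 per kilobase (SD, n = 3), and the pooled counts gave 7615-fold (95% interval 4539 to 13929, exact). Stretches of 50 bases shared with other genes made up 16.6% of Ldha and 27.0% of Ldhb, which leaves most of both transcripts distinct. Ldha and Pkm did not differ beyond their spread per kilobase of all exons (log2 ratio -0.10 ± 0.124, SD, n = 3). Under the other lengths Pkm was above Ldha, 1.21-fold with the longest transcript, 1.52-fold with unshared bases and 1.62-fold without lengths.

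Lactate export had a single expressed gene of the pair examined. Slc16a1, which encodes MCT1, a transporter that moves lactate in either direction (chromosome 3, 104638668 to 104658462, plus strand), was at 268, 273 and 252 CPM. Slc16a3, which encodes MCT4, the low-affinity exporter of strongly glycolytic cells, had 0, 1 and 1 counts. The pooled ratio was 26491-fold per kilobase (95% interval 7333 to 218751, exact), where the 2 counts of Slc16a3 set the width. Neither transcript shares a 50-base stretch with another gene. Eno2, Pfkfb3 and Pdk4, which also had at most 2 counts in all, share 0.255, 0.631 and 1.43% of theirs.

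**Figure D2:**
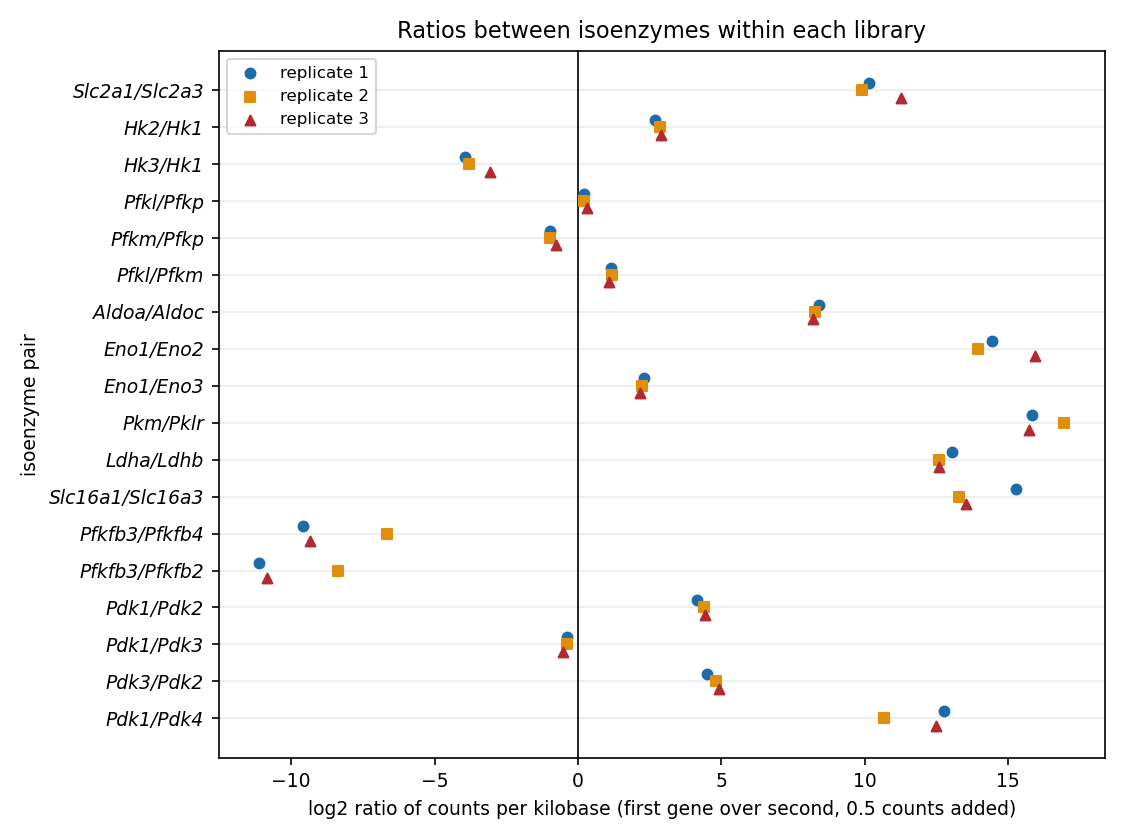
Log2 ratio of counts per kilobase between isoenzymes, first gene over second, 1 symbol per library with 0.5 counts added to each gene. Ldha/Ldhb, Pkm/Pklr and Slc16a1/Slc16a3 lie above 12 in all libraries, Pfkl/Pfkp and Pdk1/Pdk3 lie near 0, and the pairs with Pfkfb3, which had counts in 1 library only, scatter most.

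The pyruvate dehydrogenase kinases, which phosphorylate the complex and shut it off, were mainly Pdk3 and Pdk1. Pdk1, a kinase known as a target of HIF1A, was at 123, 120 and 107 CPM, with replicate 3 below the others. Pdk3 was at 52.4, 51.8 and 49.9 CPM. Per kilobase Pdk3 held 56.1 ± 1.32% and Pdk1 41.8 ± 1.11% of the 4 kinases (SD, n = 3 for each). Pdk3 exceeded Pdk1 1.34-fold per kilobase and 1.08-fold with the longest transcript, but Pdk1 was 2.27-fold the higher without lengths, so their order depends on the length taken. Pdk2, a kinase found in most tissues, was at 2.82, 2.28 and 2.02 CPM, and Pdk1 exceeded it 20.1-fold per kilobase. Pdk4, which is induced by fasting and fatty acids in muscle and liver, had 0, 1 and 0 counts, against 19493 counts of Pdk1 in all.

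All 4 members that encode subunits of the complex were expressed. Pdha1 and Pdhb, which encode the alpha and beta subunits of its E1 component, were at 255, 253 and 234 CPM and at 107, 110 and 125 CPM. Pdha1 was lowest and Pdhb highest in replicate 3. Per kilobase Pdha1 exceeded Pdhb 2.25-fold (log2 ratio 1.17 ± 0.189, SD, n = 3). The proteins are known to pair in equal numbers. Dlat, the E2 core, was at 137, 135 and 131 CPM, and Dld, the E3 subunit shared with other dehydrogenases, at 360, 359 and 367 CPM. Dld exceeded Dlat 3.57-fold per kilobase. Set against the kinases, Pdha1 exceeded Pdk1 4.43-fold per kilobase, or 2.12-fold without lengths, and Ldha exceeded Pdha1 6.10-fold.

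For the 24 isoenzyme and gene ratios fixed for testing, the first gene was the higher in all libraries for 15 and the lower in all libraries for 8. An exact permutation test by sign flips, two-sided, returned the smallest p that 3 libraries allow, 0.25, for 23 of them (0.261 adjusted by Benjamini-Hochberg over the 24). For the other, Ldha/Pkm, it gave an exact permutation p of 0.5. No ratio could therefore pass a threshold of 0.05, and the SDs are the measure of spread.

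**Figure D3:**
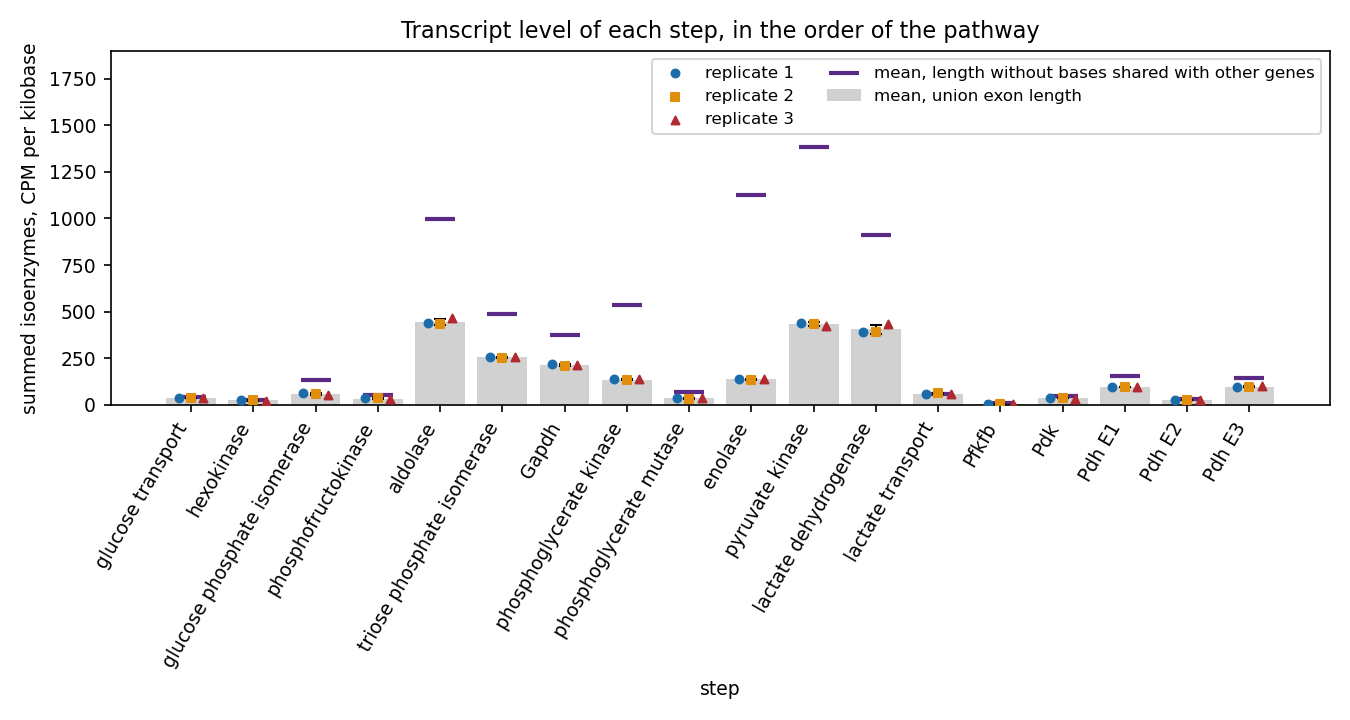
Summed level of the member isoenzymes of each step in CPM per kilobase (linear axis). Bars show the mean, error bars the SD, with 1 symbol per library. Purple marks give the mean when only bases not shared with other genes count as length. The bars are highest for aldolase, pyruvate kinase and lactate dehydrogenase and low for hexokinase and phosphofructokinase. The purple marks raise enolase from 136 to 1128. Part of this rise is the change from all exons to the longest transcript, which by itself gives 325.

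Summed over the member isoenzymes, aldolase and most steps after it stood above hexokinase and phosphofructokinase. Phosphoglycerate mutase overlapped with phosphofructokinase on this length. Aldolase was at 445 ± 17.6, pyruvate kinase at 432 ± 10.1 and lactate dehydrogenase at 405 ± 26.1 CPM per kilobase (SD, n = 3 for each), and the libraries of these 3 steps overlapped. Triose phosphate isomerase, at 254 ± 4.61, and Gapdh, at 213 ± 6.46, came next, without overlap with their neighbours. Enolase, at 136 ± 3.04, and phosphoglycerate kinase, at 135 ± 2.74, overlapped. Phosphoglycerate mutase was at 35.3 ± 2.44 and phosphofructokinase at 33.9 ± 2.09, again with overlap, and hexokinase was lowest of the 11 steps from glucose to lactate at 23.3 ± 1.77. The highest step exceeded the lowest 19.3-fold (18.2-, 17.8- and 21.9-fold in replicates 1, 2 and 3), 32.1-fold with the longest transcript and 49.1-fold when only unshared bases counted as length. Hexokinase was lowest per kilobase under each of these 3 lengths, while without lengths phosphoglycerate mutase was. The hexokinase sum holds Hk1, Hk2 and Hk3 only. Adpgk, which also phosphorylates glucose, is not a member and was at 8.77 ± 0.313 CPM per kilobase (SD, n = 3). A sum with Adpgk was not computed, so the rank of hexokinase and the span hold for the members alone. Glucose transport was at 37.2 ± 0.730, lactate transport at 59.7 ± 2.45, the Pdk kinases at 35.8 ± 1.71, E1 at 95.8 ± 0.489, E2 at 27.5 ± 0.606, E3 at 98.2 ± 1.16 and the Pfkfb enzymes at 4.90 ± 0.278 CPM per kilobase (SD, n = 3 for each).

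Several of the most abundant members have near-identical copies in the mouse genome, and how reads that match several genes were counted is not given in the sources used here. The share of 50-base stretches found in other genes was 72.2% for Eno1, 68.0% for Pgk1, 41.5% for Pgam1, 34.4% for Pkm, 27.8% for Gapdh, 13.5% for Aldoa and 7.51% for Tpi1. With unshared bases as the length, pyruvate kinase at 1383 and enolase at 1128 CPM per kilobase would rank first and second, and phosphoglycerate kinase would be at 533. Unshared bases are part of the longest transcript, so these shifts also hold the change from all exons to that transcript. With the whole longest transcript, pyruvate kinase was at 889, enolase at 325 and phosphoglycerate kinase at 166. Phosphoglycerate mutase would be at 69.4 (64.5 to 74.1 over the libraries) and no longer overlap with phosphofructokinase at 54.0 (50.3 to 57.0). The retrocopies Aldoart1 and Aldoart2 had 135, 96 and 117 counts and 243, 170 and 238 counts beside the 79377, 57221 and 80132 of Aldoa. The levels of these genes are therefore uncertain by the size of these differences.

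The libraries also differed in some members. Of the 38, 31 passed the filter on low counts, and 10 of these 31, or 32.3%, were called for replicate 3 against the other 2 libraries, 5 higher and 5 lower. Of all 11308 genes tested 51.6% were called, 24.8% higher and 26.8% lower, and whether the members differ from these was not tested. The median size of the log2 difference was 0.08 over the members and 0.17 over all genes. The 2 sets were not matched for level, with medians of 117 CPM over the members tested and 33.7 CPM over all genes tested. Pdhb was higher by 0.24 ± 0.0399 (log2 fold change with its SE; adjusted p = 1.29e-08, edgeR) and Ldha by 0.19 ± 0.0472 (adjusted p = 0.000235, edgeR). Aldoa, Aldoc and Eno3 were higher by 0.13, 0.29 and 0.15. Hk1 was lower by the most of the 5, with a log2 fold change of -0.28 ± 0.0691 (adjusted p = 0.000159, edgeR), and Pfkp, Pfkfb2, Hk2 and Pdk1 had values of -0.21, -0.17, -0.16 and -0.15. The SE comes from the spread between replicates 1 and 2, with 1 residual degree of freedom, which the quasi-likelihood fit partly pools over all genes. It is thus not the spread of a single gene, and the test compares libraries, not conditions. For replicates 1 and 2 no member was called, with 0 at an unadjusted p of 0.05 and 0 by DESeq2 for each.

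The members called differed in length. The median exon length was 7779 bases for the 5 lower members and 3263 for the 5 higher ones, against 4302.5 over all genes tested. With the length trend of all genes removed, Pdhb stayed higher by 0.22 and Ldha by 0.14 (adjusted p = 0.00957, edgeR), while Pfkp moved from -0.21 to 0.04, Pdk1 from -0.15 to 0.00 and Eno3 from 0.15 to -0.05, and none of these last 3 was then called. The other 5 also lost their call and kept their sign: Aldoc was at 0.24 against 0.29 before (adjusted p = 0.1155, edgeR), Hk1 at -0.11, Hk2 at -0.06, Pfkfb2 at -0.03 and Aldoa at 0.04. Under the same correction 6 of 31 members were called, against 34.1% of all genes. Of the 6, 4 had not been called before: Eno1 higher by 0.12, and Pgam1, Pdk3 and Pdha1 lower at -0.15, -0.15 and -0.11. Without any scaling beyond the library total, 2 members were higher and 9 lower, against 5 and 5. DESeq2 called 6 of 25 members, 3 higher and 3 lower, against 34.0% of all genes. Without scaling all genes moved the same way as the members, with 49.4% called, 19.7% higher and 29.7% lower.

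**Figure D4:**
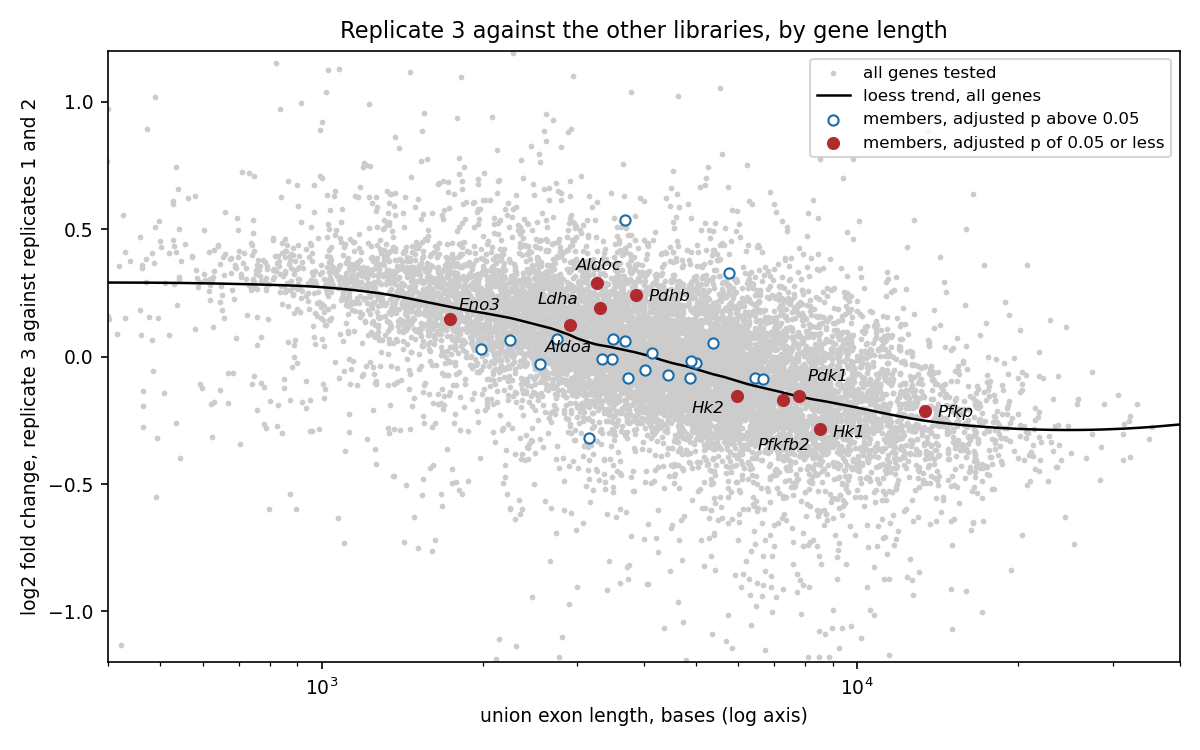
Log2 fold change of replicate 3 against replicates 1 and 2 (edgeR) by union exon length (log axis); grey points are all genes tested, the line their loess trend, and circles the 31 members, filled where the adjusted p was 0.05 or less. Of all genes, 171 lie outside the axes. Hk1, Hk2, Pdk1, Pfkfb2 and Pfkp lie with the long genes below 0, and Pdhb and Ldha lie above the line.

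Other genes that feed or drain the pathway were read from a list of 85, of which 52 were at 1 CPM or more in all libraries and 11 had 0 counts. In replicate 3, 15 of the 54 tested (27.8%) were higher and 16 (29.6%) lower, near the 24.8% and 26.8% of all genes. Among transporters, Bsg, the chaperone that carries MCT1 to the cell surface, was at 901 ± 73.2 CPM, and Mpc2 and Mpc1, which together form the mitochondrial pyruvate carrier, were at 240 ± 34.9 and 11.98 ± 0.391 CPM (SD, n = 3 for each). Slc16a7, which encodes MCT2, and the sugar transporters Slc2a10 and Slc2a13 had no count in any library, a limit of 0.0179 CPM over the 3. Among further isoenzymes of the same steps, Adpgk, an ADP-dependent glucokinase, was at 84.3 ± 3.01 CPM, Bpgm at 15.4 ± 0.752 CPM and Eno1b at 5.74 ± 0.716 CPM (SD, n = 3 for each), while Eno4 had none.

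Of the 8 partners of the pyruvate dehydrogenase complex, 7 were expressed. Lias, which makes its lipoyl cofactor, was at 112 ± 7.35 CPM, Pdhx, its E3-binding protein, at 97.6 ± 4.19 CPM and Pcx, the pyruvate carboxylase that competes for its substrate, at 21.7 ± 2.03 CPM (SD, n = 3 for each). The testis form Pdha2 had 0 counts. Of the 8 genes of gluconeogenesis and reverse steps, Pck2, the mitochondrial carboxykinase, was at 204 ± 4.58 CPM, Tigar, a phosphatase that lowers fructose 2,6-bisphosphate, at 86.1 ± 6.03 CPM and G6pc3 at 54.2 ± 3.47 CPM (SD, n = 3 for each). Pck1, the cytosolic carboxykinase, and Fbp1, the liver fructose bisphosphatase, had 0 counts. Among regulators, Myc was at 464 ± 7.70 CPM, Txnip, a glucose-induced inhibitor of glucose uptake, at 420.1 ± 11.998 CPM and Hif1a at 128 ± 12.1 CPM (SD, n = 3 for each), and Ppargc1a and Prkaa2 had 0 counts.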

How the data were processed

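Polyadenylated RNA of 3 samples was sequenced. The authors deposited raw counts per gene symbol, 1 table per sample with 24467 symbols. Per the submitters' processing notes, bcl2fastq, cutadapt 4.2 and STAR were used, and the build was mm10. How reads were assigned to genes (program, annotation, strand) is not given in the sources used here. Genes that overlap or have near-identical copies are therefore uncertain.

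GENCODE M21, on GRCm38 like mm10, gave exon lengths and positions: 23688 symbols matched directly, 471 through another symbol and 308 not at all. The main length was the union of all exons; the longest transcript, no length, and unshared bases were alternatives, the last chosen after seeing the data. Shared sequence was counted over all stretches of 50 bases of the longest transcript, both strands. Promoters came from RefSeq (GRCm38.p6).

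Ratios used counts per kilobase with 0.5 counts added. Each library was compared with the other 2 by edgeR 4.0.16 in R 4.3.3 (TMM, filterByExpr, quasi-likelihood test, Benjamini-Hochberg at 0.05). Alternatives were RLE, no scaling, no filter, DESeq2 1.42.0, a loess correction for length (span 0.3) and leaving out replicates. A trial on simulated counts had less spread than the 3 libraries together and no length trend, so it does not cover these data. Chi-square tests of homogeneity over genes with at least 20 counts gave, per degree of freedom, 4.00 between replicates 1 and 2, 65.1 between 1 and 3 and 44.4 between 2 and 3, so no library was taken as a duplicate. Python 3.11.15, pandas 2.3.3 and SciPy 1.17.1 did the rest.

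The members, lists and ratios were chosen with earlier results of these data known. All 38 members are named; in the other lists, the rule named the 3 highest genes by CPM and up to 3 at 0 counts per group. A few more were picked with their values in view.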

Additional observations from a re-analysis of the deposited data

How the results depend on the processing

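All 24 ratios kept their direction with the longest transcript, a pseudocount of 0.1 and unshared bases as the length, and without each replicate in turn. Without lengths Pfkl/Pfkp turned to -0.76 and Pdk1/Pdk3 to 1.18 on the log2 scale. Summed over members, the span from the highest to the lowest of 11 glycolytic steps was 19.3-fold. It was 32.1-fold with the longest transcript, 31.0-fold without lengths and 49.1-fold with unshared bases. Members called in replicate 3 numbered 6 of 25 by DESeq2 (all genes 34.0%) and 6 of 31 with the length trend removed (34.1%), against 10 of 31 (51.6%), so the share fell over all genes too. The correction turned Pdk1 to 0.0021, Eno3 to -0.0457 and Pfkp to 0.0393. The number of members at the detection limit stayed within 1.5 times of 28 at 0.5 and 5 CPM and without each replicate. Leaving out a library from the test of 1 against 2 leaves no residual degree of freedom, so only values were computed. No paired analysis was possible because there is 1 group. Depth limits the ratios to Eno2, Pklr, Slc16a3, Pfkfb3 and Pdk4, which rest on 1 or 2 counts.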

Other observations

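The pentose phosphate branch, which leaves glycolysis at glucose 6-phosphate, was expressed in full: all 8 genes were at 1 CPM or more in all libraries. Rpia, the ribose phosphate isomerase, was at 404 ± 25.6 CPM, Taldo1 at 252 ± 13.4 CPM and Tkt at 157 ± 1.66 CPM, the last 2 being the enzymes that return sugars to glycolysis (SD, n = 3 for each). Among 10 shuttle genes, whose products carry cytosolic reducing equivalents into the mitochondrion, 7 passed the limit, led by Mdh1 at 395 ± 27.7 CPM, Got2 at 226 ± 14.9 CPM and Mdh2 at 171 ± 10.2 CPM (SD, n = 3 for each). The aspartate-glutamate carrier also came from 1 gene of a pair: Slc25a12 was at 115 ± 10.7 CPM (SD, n = 3) and Slc25a13, its liver form, had 0 counts in every library. Of 11 glycogen genes 7 passed, with Ugp2 at 141 ± 2.24 CPM, the branching enzyme Gbe1 at 130 ± 5.34 CPM and Gyg, the primer of glycogen, at 64.0 ± 0.369 CPM (SD, n = 3 for each). The symbol Pgm1 was listed with 0 counts and Pgm2 with 33.8 CPM, names that annotation releases have assigned to different phosphoglucomutase genes.

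Among the partners of pyruvate dehydrogenase, Pdpr, the regulatory subunit of its phosphatase, had 353, 217 and 91 counts, and its log2 fold change in replicate 3 was -1.74. It was singled out after its values were seen, and the value compares 1 library with 2.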
